A study of Homo sapiens with 16 samples.

Results

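The genes described here encode LEO1, PAF1, CTR9, RTF1 and CDC73, subunits of the PAF1 complex (PAF1C), which takes its name from a factor bound to RNA polymerase II. Their members were all windows of the transcription start site (TSS) table that carry one of these 5 gene symbols, each alternative start kept apart. That gave 37 entries with 35 distinct positions, among 272902 entries with 237274 distinct positions in the whole table. LEO1 had 3 distinct windows, PAF1 6, CTR9 6, RTF1 7 and CDC73 13. Each window covers 2000 bp centred on an annotated start. For each gene the window centred on its RefSeq start is called the lead window. In all, 21 windows lay within 1 kb of a lead start and 14 lay at other starts of the same gene. Windows of the same start share most of their reads and are not independent measurements.

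PAF1C travels with RNA polymerase II during elongation and helps to bring about monoubiquitination of histone H2B and, through it, methylation of histone H3 on other lysines. CTR9 and PAF1 form the core scaffold, LEO1 pairs with PAF1, CDC73 (parafibromin, a tumour suppressor) contacts the polymerase, and RTF1 stimulates H2B ubiquitination and is more loosely bound in human cells. Dimethylation of lysine 9 on histone H3 (H3K9me2) is a mark of silent chromatin that is usually low at the starts of active genes.

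The cells were BJ-5ta, an established line of human fibroblasts immortalised with telomerase (hTERT). Wild type (WT) cells and ΔLEO1 cells, a CRISPR/Cas9 knockout grown from a single-cell clone in the same line, were kept in 10% serum or for 10 days in 0.1% serum, a treatment used to induce quiescence. The study's methods report that the clone was checked by PCR for loss of DNA between exons 1 and 2 of LEO1, and only this 1 clone was profiled, so effects of the knockout and of the clone cannot be told apart. ChIP and input were each sequenced in replicates A and B for the 4 combinations, where input is chromatin sequenced without antibody. The labels call the antibody H3, whereas the methods name H3K9me2, as do the library names in the study's supplement. The libraries are called ChIP here. Nothing in the labels says that A and B were separate cultures, so the p-values measure only the spread between these libraries. Marker genes of fibroblasts could not be checked, because the files hold counts of DNA and no RNA. The ΔLEO1 10% serum ChIP replicate A held 54 reads over all TSS windows and 0 in every member window, and it was left out. The other 7 ChIP libraries held 2153836 to 3696942 reads, and the 8 inputs 3267811 to 9238282. ΔLEO1 in 10% serum therefore has 1 ChIP library, which the fits assume to vary like the others.

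LEO1 and PAF1 were the highest and the lowest of the 5 genes in ChIP over input, and their promoters hold nearly the same number of CpG dinucleotides. Both are shown here as given by RefSeq on GRCh38.p14, 5′ to 3′ on the strand of the gene, with each CpG in capitals. The LEO1 promoter is chr15:51971729-51972028 on the minus strand and the PAF1 promoter is chr19:39391057-39391356 on the minus strand. Both lie within the lead window of their gene.
LEO1: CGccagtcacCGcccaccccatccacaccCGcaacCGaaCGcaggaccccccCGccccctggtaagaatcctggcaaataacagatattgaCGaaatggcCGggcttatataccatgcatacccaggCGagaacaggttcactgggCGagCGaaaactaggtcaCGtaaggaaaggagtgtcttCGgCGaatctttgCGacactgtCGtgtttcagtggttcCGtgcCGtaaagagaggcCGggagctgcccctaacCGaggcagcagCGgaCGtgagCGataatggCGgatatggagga
PAF1: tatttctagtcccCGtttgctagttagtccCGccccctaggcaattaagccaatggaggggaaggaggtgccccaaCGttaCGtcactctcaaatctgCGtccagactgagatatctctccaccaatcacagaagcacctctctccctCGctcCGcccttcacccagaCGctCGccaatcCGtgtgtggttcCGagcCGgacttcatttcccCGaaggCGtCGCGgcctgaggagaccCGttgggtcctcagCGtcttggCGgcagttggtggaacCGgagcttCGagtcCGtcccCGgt

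The LEO1 promoter holds 24 CpG in 300 bases and the PAF1 promoter 23. The promoters of CTR9 (chr11:10750996-10751295, plus strand) and RTF1 (chr15:41416845-41417144, plus strand) hold 32 and 31, and the median of 35116 RefSeq promoters of this length is 14. The GC content was 57.7% in LEO1, 59.3% in PAF1, 66.3% in CTR9 and 71.3% in RTF1. Both strands were searched for a few motifs. GGGCGG, the core of a GC box, is found in 45.0% of all promoters and occurred 2 times in LEO1, 2 times in PAF1, 1 time in CTR9 and 4 times in RTF1. CCAAT, found in 34.6% of promoters, occurred 3 times in PAF1. CCGGAA, found in 17.2%, occurred 2 times in CTR9. GCGCATGC, found in 3.05%, gave 2 matches in RTF1, 1 on each strand. TATAAA (11.5%) and TGACGTCA (1.85%) were not among the letters of these 4 windows. The LEO1 and PAF1 promoters face other genes. A start of MAPK6, a protein kinase gene on the plus strand, lies 44 bp from the LEO1 start, and a start of MED29, a Mediator subunit gene, lies 197 bp from the PAF1 start. Reads in these lead windows cannot be assigned to either gene of a pair.

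In ChIP, the LEO1 lead window was covered at or above its input, and the lead windows of PAF1, CTR9, RTF1 and CDC73 were covered below theirs. Values are given as raw reads and as normalized counts (CPM), scaled to a common library size by the library total and the trimmed mean of M-values (TMM). This scaling sets the middle of all windows near 0, so that a difference is relative to the typical window and cannot show a shift of the mark over the whole genome.

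The scaffold gene CTR9 (lead window chr11:10750246-10752246, plus strand) had 6 and 7 ChIP reads in WT 10% serum, 4 in ΔLEO1 10% serum, 4 and 8 in WT 0.1% serum, and 5 and 2 in ΔLEO1 0.1% serum, in replicate order A then B. Its inputs had 42 and 44, 15 and 36, 36 and 28, and 31 and 51 reads in the same order of groups. Every ChIP library lay below every input library in CPM. The mean was 2.45 ± 0.0148 CPM (SD, n = 2) in WT 10% serum ChIP against 5.59 ± 1.48 in its input, and 1.09 ± 0.404 against 5.66 ± 0.136 in ΔLEO1 0.1% serum.

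PAF1 (lead window chr19:39390106-39392106, minus strand), the partner of LEO1, had 5 and 2 ChIP reads in WT 10% serum, 2 in ΔLEO1 10% serum, 4 and 2 in WT 0.1% serum, and 3 and 2 in ΔLEO1 0.1% serum. Its inputs had 31 and 51, 17 and 62, 45 and 41, and 25 and 38 reads. These were the fewest ChIP reads of the 5 lead windows, and the ChIP and input libraries did not overlap in CPM. ChIP was 1.38 ± 0.959 CPM (SD, n = 2) in WT 10% serum and 0.816 ± 0.0141 in ΔLEO1 0.1% serum, against inputs of 5.08 ± 0.256 and 4.39 ± 0.140.

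The LEO1 lead window (chr15:51970778-51972778, minus strand) had 14 and 17 ChIP reads in WT 10% serum, 10 in ΔLEO1 10% serum, 8 and 12 in WT 0.1% serum, and 21 and 14 in ΔLEO1 0.1% serum. Its inputs had 28 and 53, 16 and 24, 28 and 26, and 20 and 24 reads. Unlike at PAF1, CPM in ChIP and input overlapped in WT 0.1% serum, and ChIP lay above input in the other 3 groups. ChIP was 5.84 ± 0.130 CPM (SD, n = 2) in WT 10% serum, 4.95 in the single ΔLEO1 10% serum library, 3.56 ± 1.48 in WT 0.1% serum and 5.71 ± 0.0987 in ΔLEO1 0.1% serum. Input was 4.95 ± 0.737, 3.76 ± 1.48, 3.70 ± 0.103 and 3.15 ± 0.623 CPM in the same order (SD, n = 2).

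CDC73 (lead window chr1:193121031-193123031, plus strand) had 4 and 4 ChIP reads in WT 10% serum, 7 in ΔLEO1 10% serum, 6 and 6 in WT 0.1% serum, and 9 and 13 in ΔLEO1 0.1% serum. Its inputs had 34 and 55, 18 and 48, 44 and 37, and 30 and 56 reads. In this window all 3 ΔLEO1 ChIP libraries lay above all 4 WT ChIP libraries in CPM, at 2.48 to 5.24 against 1.40 to 2.30. They stayed below the ΔLEO1 inputs. The inputs were 5.52 ± 0.212 and 5.54 ± 0.542 CPM in WT and 5.42 ± 0.0126 and 5.86 ± 0.662 in ΔLEO1 (SD, n = 2), in 10% and 0.1% serum. The separation of ChIP libraries depended on the window chosen. In 0.1% serum both ΔLEO1 libraries lay above both WT libraries at 2 of the 11 overlapping windows at this start. In 10% serum the single ΔLEO1 library lay above both WT libraries at all 11.

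RTF1 (lead window chr15:41416095-41418095, plus strand) had 10 and 8 ChIP reads in WT 10% serum, 7 in ΔLEO1 10% serum, 4 and 3 in WT 0.1% serum, and 9 and 4 in ΔLEO1 0.1% serum. Its inputs had 36 and 59, 18 and 36, 21 and 27, and 24 and 47 reads. WT 0.1% serum was the lowest group in both kinds of library, at 1.20 ± 0.0744 CPM in ChIP and 3.30 ± 0.663 in input (SD, n = 2), against 3.45 ± 0.930 and 5.89 ± 0.280 in WT 10% serum.

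**Figure D1:**
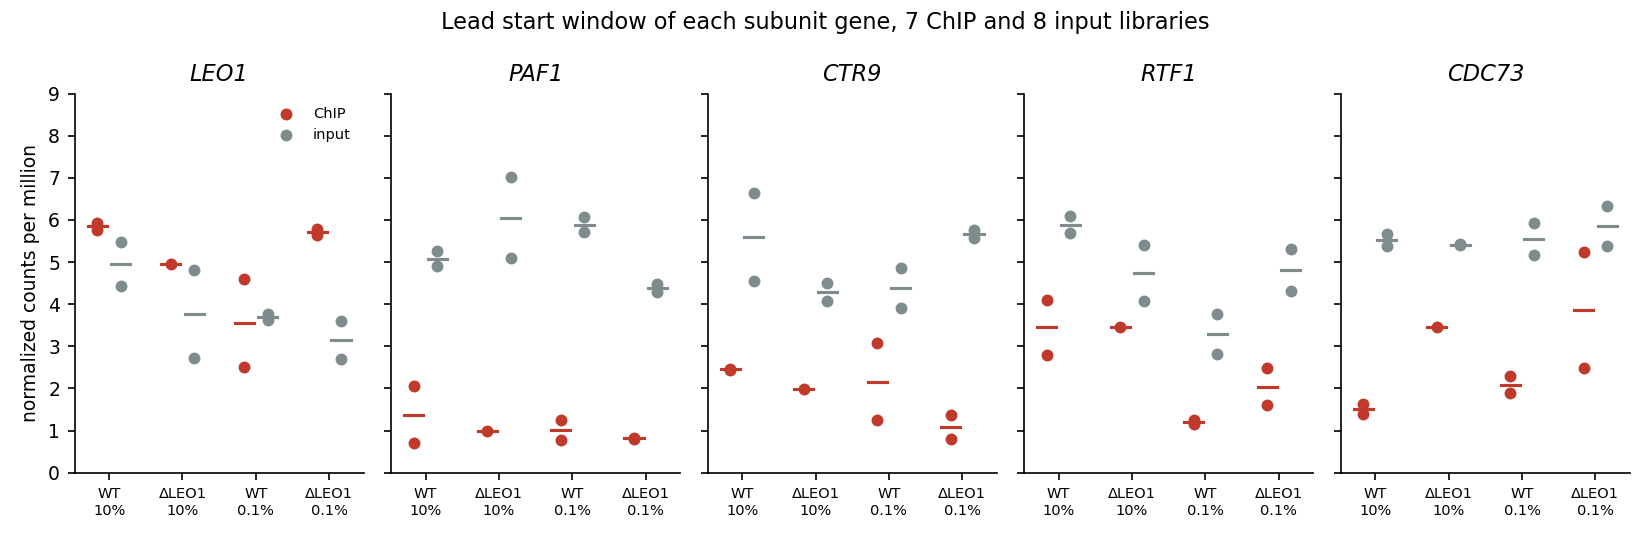
Normalized counts in CPM (vertical axis, linear) in the lead window of each gene, with a point for each ChIP (red) and input (grey) library by genotype and serum, and a bar at the group mean. LEO1 ChIP points lie at 2.51 to 5.94, at or above input in most groups, and the PAF1 points lie at 0.698 to 2.05, below every input.

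Summed over the 7 ChIP and 8 input libraries, ChIP over input at the lead window was 1.30 for LEO1 (95% exact binomial interval 1.02 to 1.67), 0.50 for RTF1 (0.356 to 0.687), 0.453 for CDC73 (0.328 to 0.613), 0.379 for CTR9 (0.260 to 0.537) and 0.192 for PAF1 (0.116 to 0.302). The reads carry no molecular identifiers and may repeat a molecule, so these intervals account for counting error alone. Taken by group, the LEO1 interval lay above 1 only in ΔLEO1 0.1% serum, at 1.88 (1.17 to 2.99). It included 1 in WT 10% serum (1.16, 0.739 to 1.77), WT 0.1% serum (0.933, 0.529 to 1.58) and ΔLEO1 10% serum (1.51, 0.673 to 3.07). The intervals of RTF1, CDC73 and CTR9 overlap, so their order is not resolved, while LEO1 lies above and PAF1 lies below CDC73 and RTF1 without overlap. The interval of PAF1 overlaps that of CTR9. Over the 203518 windows with enough input reads for a stable ratio, the median was 1.01 and the 10th and 90th percentiles 0.226 and 2.42. Of these windows, 60.2% had a lower ratio than LEO1, 27.0% lower than RTF1, 24.4% lower than CDC73, 20.1% lower than CTR9 and 7.41% lower than PAF1.

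**Figure D2:**
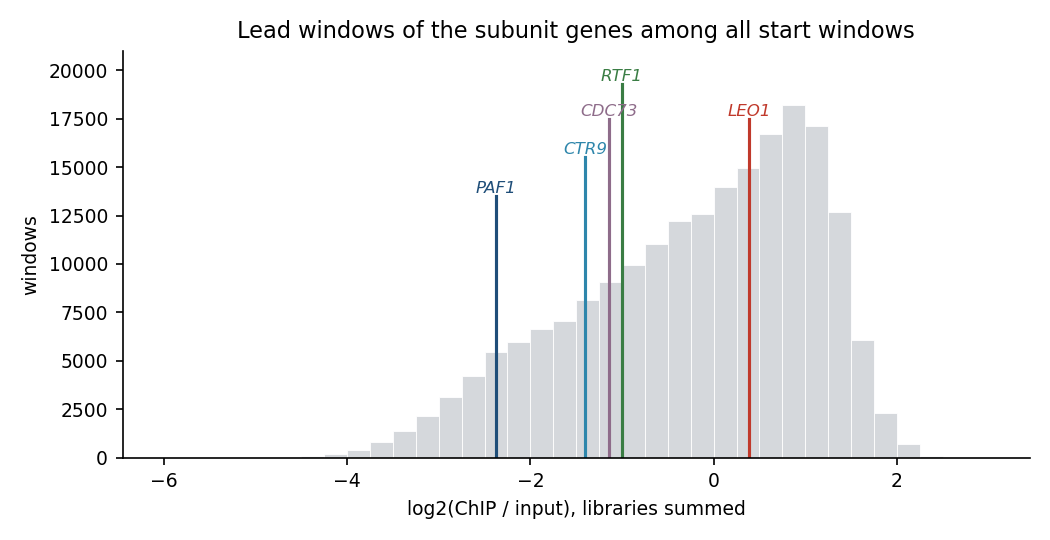
Distribution of log2 ChIP over input (horizontal axis, libraries summed) over all start windows with enough input reads (vertical axis, number of windows), with a line for the lead window of each gene at an arbitrary height. PAF1, CTR9, CDC73 and RTF1 fall left of 0 and LEO1 falls right of it.

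Within each library the LEO1 lead window was set against the lead window of each other gene as log2 of the ratio of counts, with 0.5 added to each count. This comparison does not depend on library scaling. LEO1 over PAF1 was 2.10 ± 0.695 (SD, n = 7) in ChIP and -0.48 ± 0.453 (SD, n = 8) in input, a difference of 2.57 on the log2 scale. The differences were 1.74 for LEO1 over CTR9, 1.51 for LEO1 over CDC73 and 1.35 for LEO1 over RTF1. In each of the 4 comparisons every ChIP library lay above every input library. The exact two-sided permutation p over libraries was 0.0003108 in each, the smallest that 7 against 8 libraries can give, and 0.0003108 after Benjamini-Hochberg adjustment over the 4. All 4 comparisons use the same LEO1 counts and are not independent of each other. The test also treats libraries of all genotype and serum groups as exchangeable. The difference had the same sign in WT and in ΔLEO1 taken alone, at 2.21 and 3.01 for PAF1, 1.16 and 2.45 for CTR9, 1.61 and 1.32 for CDC73, and 1.10 and 1.61 for RTF1.

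The comparison of ChIP with input asks where the mark lies above or below its background, and it was fitted with edgeR's quasi-likelihood test over all windows, with p-values adjusted by Benjamini-Hochberg and called under 0.05. All 35 member windows passed the filter on low counts. In WT 10% serum 25 were called lower and 1 higher, where 29.1% of all windows tested were called lower and 29.5% higher. In WT 0.1% serum 23 were lower and 0 higher (all windows 28% and 25.7%, and 24 members had an unadjusted p under 0.05). Over all 237580 windows tested, 139810 had an unadjusted p under 0.05 in that group. In ΔLEO1 0.1% serum 19 were lower and 3 higher (all windows 28.7% and 27%). In ΔLEO1 10% serum, with its single ChIP library, 9 were lower and 0 higher (all windows 11.3% and 15.4%, with 9 unadjusted). DESeq2 called 20 lower and 0 higher in WT 10% serum (all windows 25.3% and 17.4%), 20 lower and 0 higher in WT 0.1% serum (22.6% and 11.3%), and 17 lower and 1 higher in ΔLEO1 0.1% serum (24% and 10%). The count of calls was 15 without WT 10% serum ChIP replicate B, 13 without WT 0.1% serum ChIP replicate A, 4 without ΔLEO1 10% serum input replicate B and 14 without ΔLEO1 0.1% serum ChIP replicate A.

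Windows at lead starts were called lower at 18 of 21 in WT 10% serum, 19 of 21 in WT 0.1% serum and 15 of 21 in ΔLEO1 0.1% serum, against 7, 4 and 4 of 14 at other starts. Of these 21 windows 11 are overlapping windows of CDC73. Counted once per gene by lead window, 3, 4 and 3 of the 5 genes were called lower in these groups. In ΔLEO1 10% serum the counts were 4 of 21 at lead starts and 5 of 14 at other starts. At its lead window PAF1 was lower in all 4 groups, with log2 differences of -1.93 ± 0.49 (SE) in WT 10% serum (edgeR adjusted p = 0.000326), -2.48 ± 0.49 in WT 0.1% serum (7.98e-06), -2.67 ± 0.77 in ΔLEO1 10% serum (0.00580) and -2.38 ± 0.54 in ΔLEO1 0.1% serum (9.28e-05). The call in ΔLEO1 10% serum rests on 2 ChIP reads, a ratio of 0.153 with a counting interval of 0.0182 to 0.570. Leaving out WT 10% serum ChIP replicate B gave -1.36 in that group, which was no longer called, and leaving out ΔLEO1 10% serum input replicate B gave -2.34, which was also not called.

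CTR9 was called lower, at -1.13 ± 0.41 (SE) in WT 10% serum (edgeR adjusted p = 0.0128), -1.07 ± 0.44 in WT 0.1% serum (0.0297) and -2.29 ± 0.47 in ΔLEO1 0.1% serum (1.99e-05), and it was -1.07 ± 0.69 in ΔLEO1 10% serum (0.235). The WT calls of CTR9 were lost without either WT 10% serum ChIP library or without its input replicate A, and without replicate A of the WT 0.1% serum ChIP or input, with values from -1.19 to -0.59, and with DESeq2 in WT 0.1% serum (adjusted p = 0.0777). RTF1 was -0.80 ± 0.37 (0.0531) in WT 10% serum, -1.43 ± 0.53 (0.0171) in WT 0.1% serum, -0.36 ± 0.58 (0.662) in ΔLEO1 10% serum and -1.20 ± 0.42 (0.00992) in ΔLEO1 0.1% serum. The WT 10% serum value of RTF1 was called with library totals without TMM, and also with distinct windows and with the compared groups alone, at -0.90 and -0.87. The WT 0.1% serum call of RTF1 was lost with DESeq2 (0.0506), without either of its ChIP libraries and without its input replicate B, and the ΔLEO1 0.1% serum call without replicate B of its ChIP or input. CDC73 was -1.86 ± 0.46 (0.000242) and -1.41 ± 0.41 (0.00224) in WT in 10% and 0.1% serum, and -0.64 ± 0.56 (0.390) and -0.71 ± 0.35 (0.0674) in ΔLEO1. It passed in ΔLEO1 0.1% serum, at -1.35, when ChIP replicate B was left out, and at -0.80 and -0.79 without TMM and with the compared groups alone.

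LEO1 differed from input by 0.21 ± 0.33 (SE, edgeR adjusted p = 0.586) in WT 10% serum, -0.10 ± 0.39 (0.848) in WT 0.1% serum and 0.57 ± 0.55 (0.441) in ΔLEO1 10% serum. In ΔLEO1 0.1% serum it was 0.90 ± 0.35 higher than input (0.0228). This call was lost with DESeq2 (0.72, adjusted p = 0.211), without either ΔLEO1 0.1% serum ChIP library and without input replicate B, with values of 0.67 to 0.82 when a library was left out. The input of this group was also the lowest of the 4 groups at LEO1, at 3.15 CPM.

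The other starts of these genes spanned a wider range than the lead starts of PAF1, CTR9, RTF1 and CDC73. LEO1's other start, 16717 bp into the gene, had a ChIP over input ratio of 1.15 (0.884 to 1.47), close to its lead window. In PAF1 the start 1908 bp downstream stood at 0.772 (0.584 to 1.01) and the start 4340 bp downstream at 0.275 (0.162 to 0.440). In CTR9 the ratios were 0.615, 0.316 and 0.434 at 15088, 15805 and 21261 bp, and 1.27 (0.992 to 1.62) at 24275 bp. RTF1 had 1.58 (1.25 to 1.99) at a start upstream (-8687 bp from its lead start), 0.544 and 0.567 at the overlapping starts 57492 and 57574 bp downstream, and 1.02 and 1.04 at 60094 and 61390 bp.

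CDC73 held the highest ratio of all 35 windows. Its start 110995 bp downstream of the lead start (chr1:193232026-193234026) had 16 and 18 ChIP reads in WT 10% serum, 12 in ΔLEO1 10% serum, 21 and 16 in WT 0.1% serum and 34 and 22 in ΔLEO1 0.1% serum, against 18 to 32 input reads. The ratio was 2.05 (1.64 to 2.55). ChIP was higher than input by 0.97 ± 0.35 in WT 10% serum (SE, edgeR adjusted p = 0.0115) and by 1.61 ± 0.31 in ΔLEO1 0.1% serum (6.09e-06), and the difference was 0.66 ± 0.33 (0.0790) in WT 0.1% serum and 0.57 ± 0.51 (0.401) in ΔLEO1 10% serum. The other start of CDC73, 64460 bp downstream, was at 0.341 (0.220 to 0.508).

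**Figure D3:**
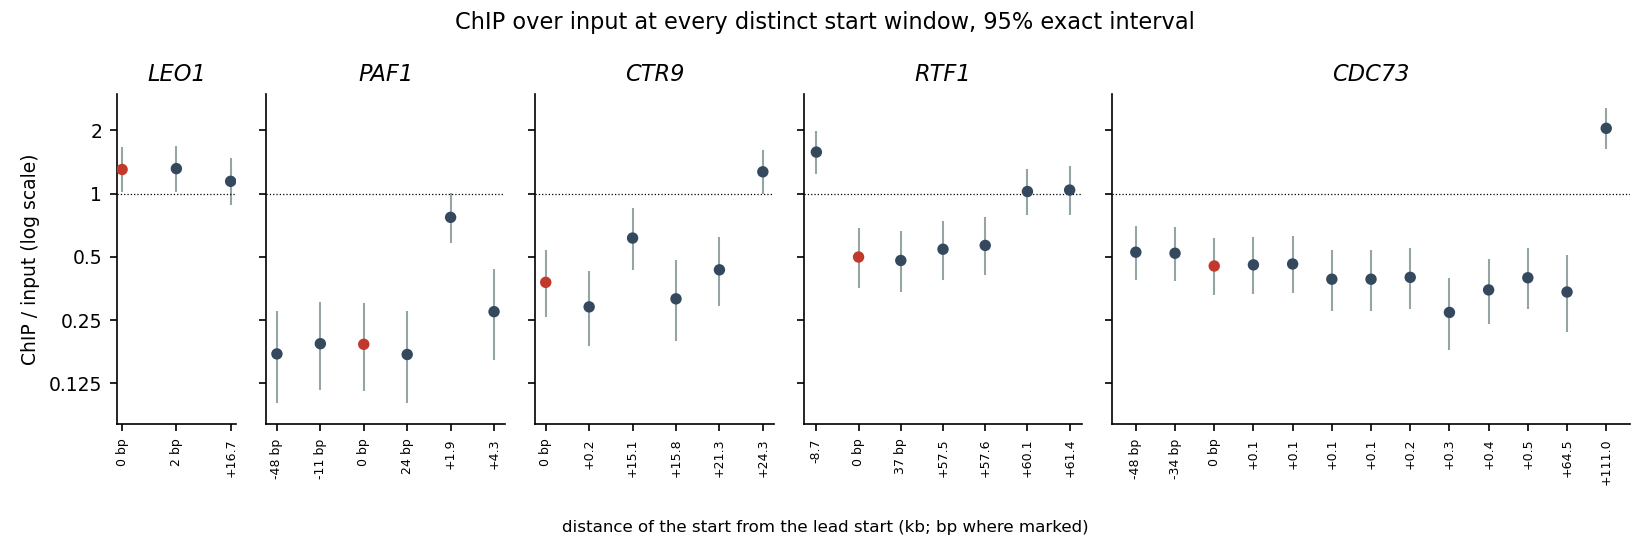
ChIP over input, libraries summed (vertical axis, log scale), at every distinct start window of the 5 genes, in order of the distance from the lead start (horizontal axis), with 95% exact binomial intervals and the lead window in red. The windows within 1 kb of the lead start lie below 1 in PAF1, CTR9, RTF1 and CDC73, and the farthest CDC73 start lies at 2.05.

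The surroundings of the genes also differed. Over all start windows within 1 Mb of the lead start, ChIP over input was 1.41 around LEO1 and 1.24 around CDC73, against 0.836 around PAF1, 0.861 around CTR9 and 0.891 around RTF1. The LEO1 lead window was near the middle of its surroundings, with 48.0% of 223 windows below it. PAF1 had 6.84% of 512 windows below it, CDC73 30.5% of 82, RTF1 31.3% of 425 and CTR9 36.7% of 169. Across genes, the ratio at the lead window fell with the number of CpG in the RefSeq promoter, from a median of 1.71 over 2512 genes with 0 to 4 CpG to 0.450 over 3954 genes with 30 or more. Among 1680 genes within 2 CpG of LEO1 the median ratio was 0.552, and 82.7% lay below LEO1. Among 1652 genes within 2 CpG of PAF1 the median was 0.573 and 13.6% lay below PAF1, whereas CTR9 and RTF1 stood nearer the middle of their classes, with 40.8% and 51.1% below them. Genes are not independent replicates, and these shares are descriptions.

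The table of merged peak regions annotated 0 peaks to the 5 genes by nearest gene. Within 50 kb of a lead start there was 1 peak near LEO1 and 1 near CDC73, both in Alu repeats. The peak near LEO1 (chr15:51942897-51943679, in an AluSx3 element) lies inside the gene, 28490 bp downstream of its start. It had 16 and 11 ChIP reads in WT 10% serum, 13 in ΔLEO1 10% serum, 25 and 17 in WT 0.1% serum and 9 and 19 in ΔLEO1 0.1% serum, a ratio to input of 3.52 (2.65 to 4.69). WT 0.1% serum and ΔLEO1 0.1% serum overlapped in CPM there, at 6.52 to 7.85 and 2.48 to 7.66. The peak near CDC73 (chr1:193112488-193113325, in an AluSc element) lies 9124 bp upstream of its start and had a ratio of 3.76 (2.88 to 4.93). Peaks were called on ChIP, so these ratios are descriptions, and no test of genotype was run on them. The nearest peaks to PAF1, CTR9 and RTF1 lay 204307, 152027 and 291605 bp away.

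The comparison of ΔLEO1 with WT asks whether the mark at the genes of the complex changed when a subunit was lost. Within ChIP libraries, 22 of the 35 windows passed the filter on low counts, and the lead windows of PAF1 and CTR9 were among the 13 that did not. Of the 22, edgeR called 0 in 0.1% serum (0 with an unadjusted p under 0.05, 0 with DESeq2), where 0.347% of all windows were called. Over all 159524 windows tested, 17075 had an unadjusted p under 0.05. The all-window shares here, and in the serum and input comparisons below, count adjusted calls only. In 10% serum edgeR also called 0 (3 unadjusted, 0 with DESeq2; all windows 0.0295%). At LEO1 itself, in 0.1% serum, both ΔLEO1 libraries (5.64 and 5.78 CPM) lay above both WT libraries (2.51 and 4.60 CPM), a log2 difference of 0.74 ± 0.40 (SE, edgeR adjusted p = 0.506). In 10% serum the difference was -0.21 ± 0.52 (0.956). The lead windows of CDC73 and RTF1 differed by 0.82 ± 0.59 (0.652) and 0.80 ± 0.75 (0.754) in 0.1% serum, with both ΔLEO1 libraries above both WT libraries at each gene, and by 1.20 ± 0.85 (0.750) and 0.05 ± 0.77 (0.992) in 10% serum. The separation at CDC73 in 0.1% serum held at 2 of the 11 overlapping windows at its lead start. Fitted without the filter, PAF1 differed by -0.31 ± 0.92 and CTR9 by -0.81 ± 0.68 in 0.1% serum, with overlapping libraries. Both rest on 2 to 8 ChIP reads per library. Over all 35 windows, overlapping ones included, both ΔLEO1 libraries lay above both WT libraries at 11 in 0.1% serum and below both at 1. The share of all windows in the genome that separate in this way was not counted, so these counts cannot be read as an excess. With 2 libraries per group, such a separation is a description and not a test.

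Without the filter, 27 of the 35 windows had a difference above 0 in 0.1% serum, with a median of 0.39 against -0.01 over all windows. In 10% serum 20 of 35 were above 0, with a median of 0.23 against -0.01 over all windows. The share of all windows above 0 was not counted. These counts and medians, and those for input below, include overlapping windows that share reads, 11 of them at the CDC73 lead start. By lead window, LEO1, CDC73 and RTF1 were above 0 in 0.1% serum and PAF1 and CTR9 below it. Input differed in the same direction at some genes. In 0.1% serum 26 of 35 windows were above 0 in input, with a median of 0.12 against 0.00098 over all windows. RTF1's lead window differed by 0.57 ± 0.28 between ΔLEO1 and WT input (unadjusted p = 0.0450, edgeR adjusted p = 0.924). A fit with the input difference subtracted from the ChIP difference also gave no call at RTF1 in this comparison. How much of the ChIP difference at RTF1 follows its input was not tested further.

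**Figure D4:**
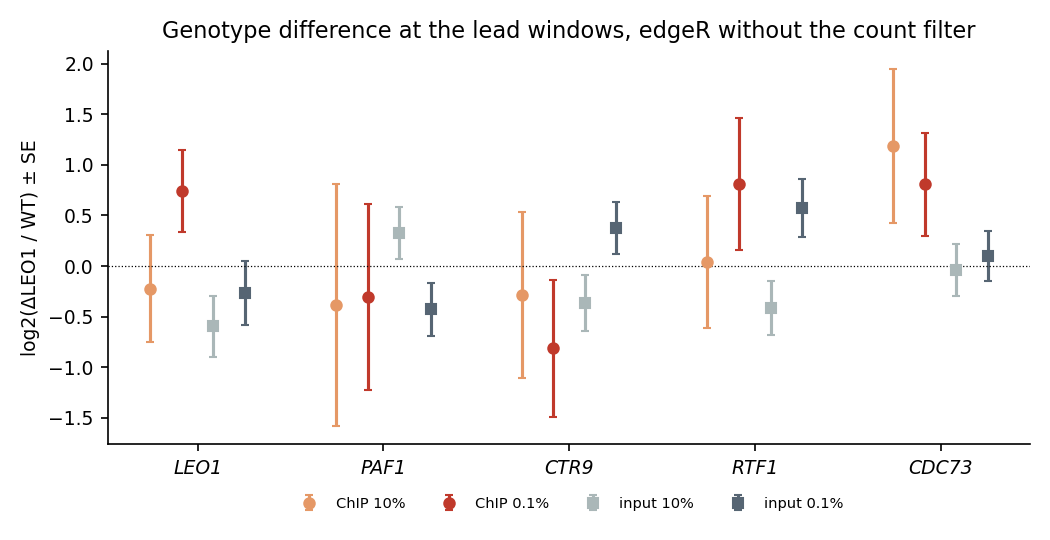
Log2 difference between ΔLEO1 and WT at the lead windows (vertical axis, point and SE from edgeR without the count filter) in ChIP (circles) and input (squares), in 10% and 0.1% serum. None of the differences passed the test where it was run. LEO1 in 0.1% serum ChIP stands at 0.74 and the PAF1 and CTR9 estimates have SEs of 0.68 to 1.20 in ChIP.

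Of the 35 windows, 2 inside RTF1 had no reads in the single ΔLEO1 10% serum library. The windows at 57492 and 57574 bp (chr15:41473587-41475587 and chr15:41473669-41475669), which overlap, had 0 reads there, against 5 and 8 and 5 and 7 reads in WT 10% serum ChIP and 15 and 43 reads in the ΔLEO1 10% serum inputs. With 3 reads put in place of 0, the level would be 3.15-fold lower than the mean input, and 1.63-fold and 1.51-fold lower than the mean WT ChIP. These folds leave out the counting error of the input and WT reads. The exact interval of ChIP over input, which includes that of the input reads, was 0 to 0.396 at both windows. The window at 61390 bp had 2 reads against 11 and 15 in WT, a ratio to input of 0.205 with a counting interval of 0.0242 to 0.772. These 3 windows were those with an unadjusted p under 0.05 in 10% serum (0.0100, 0.0122 and 0.00803), and the edgeR adjusted p-values were 0.421, 0.438 and 0.397. In 0.1% serum, where ΔLEO1 has 2 ChIP libraries, the same windows had 9 and 11, 12 and 11, and 18 and 10 reads, against 4 and 10, 5 and 9, and 13 and 9 in WT.

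The serum comparison asks whether the mark changed as cells were held in low serum. Over all 159524 windows tested, 15000 had an unadjusted p under 0.05 for serum in WT. In WT edgeR called 0 of 22 windows (2 unadjusted, 0 with DESeq2; all windows 0.27%), and in ΔLEO1 0 of 22 (4 unadjusted, 0 with DESeq2; all windows 0.0633%). LEO1 was -0.70 ± 0.41 (SE, edgeR adjusted p = 0.608) in 0.1% against 10% serum in WT and 0.25 ± 0.51 (0.919) in ΔLEO1. The term for the difference between these effects was 0.95 ± 0.65 (0.935), and edgeR called 0 of 22 windows for it (3 unadjusted, 0 with DESeq2; all windows 0%). The 2 unadjusted windows in WT were the overlapping windows at the RTF1 lead start, where the ChIP difference between 0.1% and 10% serum was -1.41 ± 0.70 and -1.55 ± 0.74 (edgeR adjusted p = 0.514 and 0.489). The RTF1 input differed by -0.85 ± 0.27 and -0.82 ± 0.27 (0.188 and 0.211). A fit with the input difference subtracted from the ChIP difference called 0 windows higher and 0 lower of 237580 for serum in WT. The part of input in the ChIP difference at RTF1 was not tested further. At the PAF1 start 1908 bp downstream, ChIP had 7 and 5 reads in 10% serum and 14 and 11 in 0.1% serum in WT, and 2 against 13 and 17 in ΔLEO1, log2 differences of 0.97 ± 0.50 (0.538) and 2.30 ± 0.83 (0.348) that did not pass the test.

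The inputs showed no call at these genes. All 35 windows were tested, and edgeR called 0 for genotype in 0.1% serum (4 unadjusted; all windows 0%), 0 for genotype in 10% serum (1 unadjusted; 0.0021%), 0 for serum in WT (2 unadjusted; 0.0235%) and 0 for serum in ΔLEO1 (5 unadjusted; 0%), and DESeq2 called 0 in each. These percentages are of adjusted calls. An unadjusted p under 0.05 was found at 12688, 15708, 24311 and 9436 of all 238006 windows, in the same order. The LEO1 input was -0.27 ± 0.32 (SE, edgeR adjusted p = 0.989) in ΔLEO1 against WT in 0.1% serum and -0.60 ± 0.30 (0.756, unadjusted p = 0.0499) in 10% serum. ΔLEO1 inputs had 16 to 24 raw reads in the LEO1 lead window and WT inputs 26 to 53, from libraries of unequal depth. In CPM the inputs of the genotypes overlapped, at 2.71 to 4.81 in ΔLEO1 and 3.63 to 5.47 in WT. The methods place the guides in exons 1 and 2 of LEO1. The ends of the deletion were not mapped here, and the window also covers sequence upstream of LEO1 with the MAPK6 start, so these counts do not check the genotype.

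Genes of the same pathway were taken from lists of elongation factors, with 1 lead window per gene. The SETD1B window lay 13854 bp from its RefSeq start, and for WDR61 the window with the largest sum of input reads was used. Of 50 other genes found in the table, 48 passed the filter, NELFE and POLR2J being the exceptions. ChIP was called lower than input at 34 of 48 in WT 10% serum, 35 in WT 0.1% serum, 33 in ΔLEO1 0.1% serum and 13 in ΔLEO1 10% serum, where 29.1%, 28%, 28.7% and 11.3% of all windows were called lower, and higher at 0 in each, by edgeR at an adjusted p under 0.05 (35, 38, 35 and 24 genes with an unadjusted p under 0.05 in either direction). Over all libraries 47 of the 48 had a ratio below 1, with a median of 0.282, against 1.01 over all windows. By group the median ratio was 0.459 for 11 genes of P-TEFb and the super elongation complex, which release paused polymerase, 0.255 for 5 of DSIF and NELF, which help to hold it, 0.366 for 6 histone chaperones of elongation, 0.101 for 5 genes of H2B ubiquitination, 0.286 for 9 of H3K4, H3K36 and H3K79 methylation and 0.442 for 11 subunits of RNA polymerase II. WDR61, which encodes the sixth subunit of human PAF1C and is shared with the SKI complex, had 0.474 (0.329 to 0.666).

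LEO1 stood at the upper end of these genes and PAF1 in their lower part. Only NELFCD, a NELF subunit gene, had a higher ratio than LEO1, at 1.31 (1.03 to 1.67) against 1.30. Of the 48 genes 12 had a lower ratio than PAF1. The lowest was UBE2A, an H2B-ubiquitinating enzyme gene on chromosome X, with 2 ChIP reads in all and a ratio of 0.0428 (0.00514 to 0.158), followed by the chromatin remodeller gene CHD1 at 0.0692. RNF20, an H2B ubiquitin ligase gene, was at 0.641 and its partner gene RNF40 at 0.234. In the genotype and serum comparisons of ChIP, 18 of the 50 genes passed the filter, and edgeR called 0 in each, with 0 to 3 genes at an unadjusted p under 0.05. WDR61 differed most between ΔLEO1 and WT in 0.1% serum, by 1.87 on the log2 scale, and was not called.

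**Figure D5:**
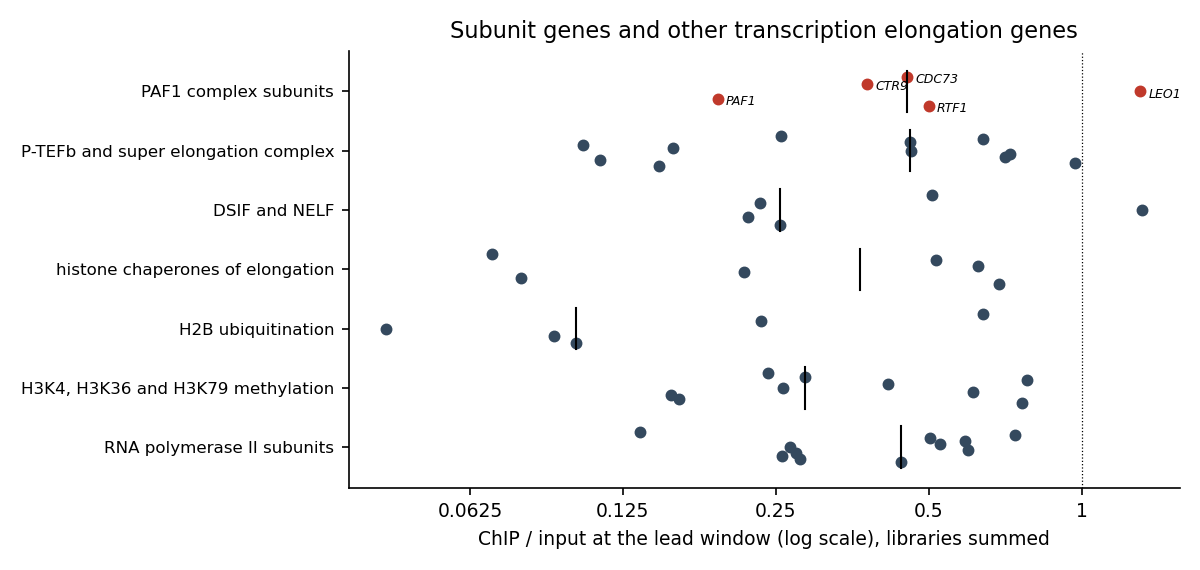
ChIP over input at the lead window, libraries summed (horizontal axis, log scale), for the 5 subunit genes (red, named) and other elongation genes by group (dark points, a point per gene), with a bar at each group's median. All points but LEO1 and NELFCD lie left of 1.

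By the correlation of normalized log counts over the 7 ChIP libraries, the genes most like the LEO1 lead window among 23185 were GTF3AP5 (Pearson r = 0.988), RNU7-183P (0.984) and CLEC4M (0.980). For this search each other gene was represented by its window with the largest sum of input reads. The libraries share depth and few reads fall in each window, and these values are a description. GTF3AP5 had 12, 17, 9, 6, 10, 21 and 14 ChIP reads where LEO1 had 14, 17, 10, 8, 12, 21 and 14.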

How the data were processed

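The authors deposited raw read counts, whole numbers without scaling, for 16 libraries over TSS windows and over merged peak regions, and all columns were used. Per the submitters' processing notes, bcl2fastq 2.20.0.422, STAR 2.7.10a and HOMER were run and builds hg38 and dm6 are named. According to the methods, csaw counted the ChIP signal and spiked-in fly chromatin set the scale. The TSS table holds 0 windows on fly contigs, so spike-in scaling was not possible. Of 39367 shared symbols, 95.5% had a window within 1 kb of the RefSeq start in GRCh38.p14, and coordinates are printed as deposited.

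Counts were fitted with edgeR 4.0.16 in R 4.3.3 (quasi-likelihood F-test, two-sided, filterByExpr with a minimum count of 10, TMM, prior count 0.125), with a coefficient per group. The 15 libraries entered 1 fit for ChIP against input, and the 7 ChIP libraries and the 8 inputs were each fitted alone. P-values were adjusted by Benjamini-Hochberg over all windows tested and called under 0.05. SEs were derived from the F statistic. Permutation tests and exact intervals (95%) used scipy 1.17.1, and folds at windows of 0 reads used 3 reads per library. The code was tested on simulated counts. Replicates A and B of every group with both libraries differed beyond sampling noise over peak regions and entered as 2 libraries. Over the TSS windows, on which the tests were run, the excess in ChIP was small. Chi-square per degree of freedom, near 1 for sampling noise alone, was 1.01 to 1.05 there, against 1.38 to 1.49 over peak regions. In the inputs it was 1.01 to 1.62 over TSS windows.

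The members and gene lists were chosen with earlier results of these data known. By rule every window of the 5 genes was described, and the lead window, centred nearest to the RefSeq start, was followed through all comparisons. Other genes were named as the extremes of their lists or as the 3 most correlated with LEO1, and PAF1, RTF1 and CDC73 windows at other starts were singled out after their values were seen, as were CHD1, RNF20 and RNF40. Alternatives were no filter, totals without TMM, totals of the peak table, DESeq2 1.42.0, the replicate block, the groups compared alone, distinct windows, the library of 54 reads included, the input difference taken off, each library left out, and, added later, a prior count of 2.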

Additional observations from a re-analysis of the deposited data

How the results depend on the processing

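The counts of called member windows under alternative settings were within 1.5 times those reported, apart from the following. With totals of the peak table as library sizes, which give ChIP libraries larger totals relative to input and move the median of all windows to between -2.47 and -1.80 on the log2 scale, ChIP against input gave 35 calls in WT 0.1% serum and in ΔLEO1 10% serum and 34 in ΔLEO1 0.1% serum, and LEO1 turned to -2.21 in WT 10% serum, -1.43 in ΔLEO1 10% serum and -0.91 in ΔLEO1 0.1% serum, still above the median of all windows. DESeq2 gave no adjusted p for 34 of the 35 windows in ΔLEO1 10% serum, so its count there is not used. Leaving out 1 library gave 15 to 24 calls in WT 10% serum, 13 to 22 in WT 0.1% serum, 4 to 8 in ΔLEO1 10% serum and 14 to 22 in ΔLEO1 0.1% serum. Genotype, serum and interaction gave 0 calls under every setting run.

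Replicate letters were shared by all groups, and little pairing of the libraries by letter was seen. With few reads per window, a low correlation does not settle whether libraries of the same letter were handled together. Over 21 pairs of groups the deviations correlated between -0.0326 and 0.109, and 1 pair exceeded 0.1. With the replicate block, ChIP against input gave 26 calls in WT 10% serum, 23 in WT 0.1% serum, 9 in ΔLEO1 10% serum and 22 in ΔLEO1 0.1% serum, the counts obtained without it.

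With few reads per window, and 1 ChIP library in ΔLEO1 10% serum, differences of about 1 log2 unit were within 2 SE at 4 of the 5 lead windows in the ChIP comparison of genotypes in 0.1% serum.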
